A study of Mus musculus with 4 samples.

Results

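The Myh6 locus, on the minus strand of mouse chromosome 14, carried 1246 crosslink sites of the splicing factor SRSF4 with 2347 cDNAs, out of 33749 sites and 93371 cDNAs in the whole list. The sites were those on the minus strand within a window of 32 kb around the alpha myosin heavy chain gene on the mm9 build, and the gene name comes from that window rather than from an mm9 annotation. They lay between 55558453 and 55584703, with the 5′ end of the gene on the high side. The window was chosen by the number of listed sites and clusters seen in it in these same data, so those counts are a description and not a finding.

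Cardiomyocytes came from C57BL/6 mice at P0-1 and every culture received 15 μg of modified RNA for SRSF4 fused to GFP. Crosslinking by 254 nm ultraviolet light (100 mJ) followed after 48 h. RNA trimmed to 80 to 200 nt and bound to the fusion was then pulled down with an antibody to GFP (iCLIP). The protein studied was therefore a tagged, added copy, and the labels describe 4 libraries of this group alone, with no GFP-only, input or untransfected control. The deposited values are 1 pooled list, summed over 5 data sets, so values per library were not analysed here and no spread between replicates can be given for Myh6. The labels name 4 libraries and the list 5 data sets, and how they relate is not known. Sites are positions where a cDNA ended next to the crosslinked nucleotide, and the value of a site is its number of cDNAs. Intervals are 95% exact (Clopper-Pearson) ones, take sites or cDNAs as independent and allow for counting error alone.

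Myh6 encodes alpha myosin heavy chain, a motor protein of the thick filament that drives contraction, and an intron of the gene hosts the microRNA miR-208a. Its neighbour Myh7 encodes the beta chain, which predominates in the fetal mouse ventricle and gives way to the alpha chain around birth. SRSF4 belongs to the serine and arginine-rich proteins, which bind RNA during splicing and in part accompany it afterwards. The level of Myh6 RNA was not measured, so abundant RNA and frequent contact cannot be told apart, and without a control the part of background RNA in the pull-down was not tested.

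Myh6 and Myh7 messenger RNAs share long identical stretches, which bears on how reads from this locus could be placed. The coding sequences of the main full-length Myh6 transcript (6113 nt) and Myh7 transcript (6135 nt) of GENCODE M21 on GRCm38 were identical at 5320 of 5802 aligned nucleotides, or 91.7%. Of the 6084 windows of 30 nt in the Myh6 transcript, 33.0% also occurred in that of Myh7, and of windows of 50 nt, 22.6% did. The longest identical stretch, 245 nt of coding sequence at nucleotides 4482 to 4726 of the Myh6 transcript and 4458 to 4702 of the Myh7 transcript, is shown because a fragment inside it belongs to either gene.
Myh6 and Myh7, shared: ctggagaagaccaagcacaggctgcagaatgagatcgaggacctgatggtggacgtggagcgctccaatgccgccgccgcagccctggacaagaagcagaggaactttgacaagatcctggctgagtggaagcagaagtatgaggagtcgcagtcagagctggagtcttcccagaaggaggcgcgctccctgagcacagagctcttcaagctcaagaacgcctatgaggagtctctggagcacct

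The contrasting case is the least alike window of 90 nt without an alignment gap, where 33 nucleotides differed. It is shown to mark where a fragment of either messenger RNA can be placed, and capitals mark the differing bases. Positions are counted from the first base of the start codon, 3222 to 3311 in Myh6 and 3216 to 3305 in Myh7.
Myh6: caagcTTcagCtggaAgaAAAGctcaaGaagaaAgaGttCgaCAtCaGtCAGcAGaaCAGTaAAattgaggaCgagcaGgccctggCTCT
Myh7: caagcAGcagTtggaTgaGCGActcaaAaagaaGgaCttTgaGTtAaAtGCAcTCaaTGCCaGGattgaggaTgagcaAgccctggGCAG

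The sources used here do not say how reads with more than 1 match were handled, so sites in exons that both genes share, or their absence, are uncertain. No sequence was read at the crosslink sites themselves, since the genome used with these files is mm9 and the reference used here is GRCm38.

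Contacts on Myh6 formed a chain of short clusters with 1 wide cluster of many cDNAs towards the 3′ side. Sites at most 50 nt apart were joined into 48 clusters, which covered 11.5% of the 26251 nt between the outermost sites. The median cluster was 27.5 nt wide and held 11.5 sites and 21 cDNAs. The 6 clusters with the most cDNAs held 731 sites (58.7%) and 1460 cDNAs (62.2%). The other 42 clusters ranged from 1 to 32 sites, from 1 to 60 cDNAs and from 1 to 135 nt in width. Sites and cDNAs per cluster were ordered alike (Spearman's rho 0.96 across 48 clusters of the same pool). Each listed site holds at least 1 cDNA, so a high rho was largely fixed in advance. Cluster width and the mean cDNAs per site were nearly unrelated (rho 0.06 over the same clusters).

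**Figure D1:**
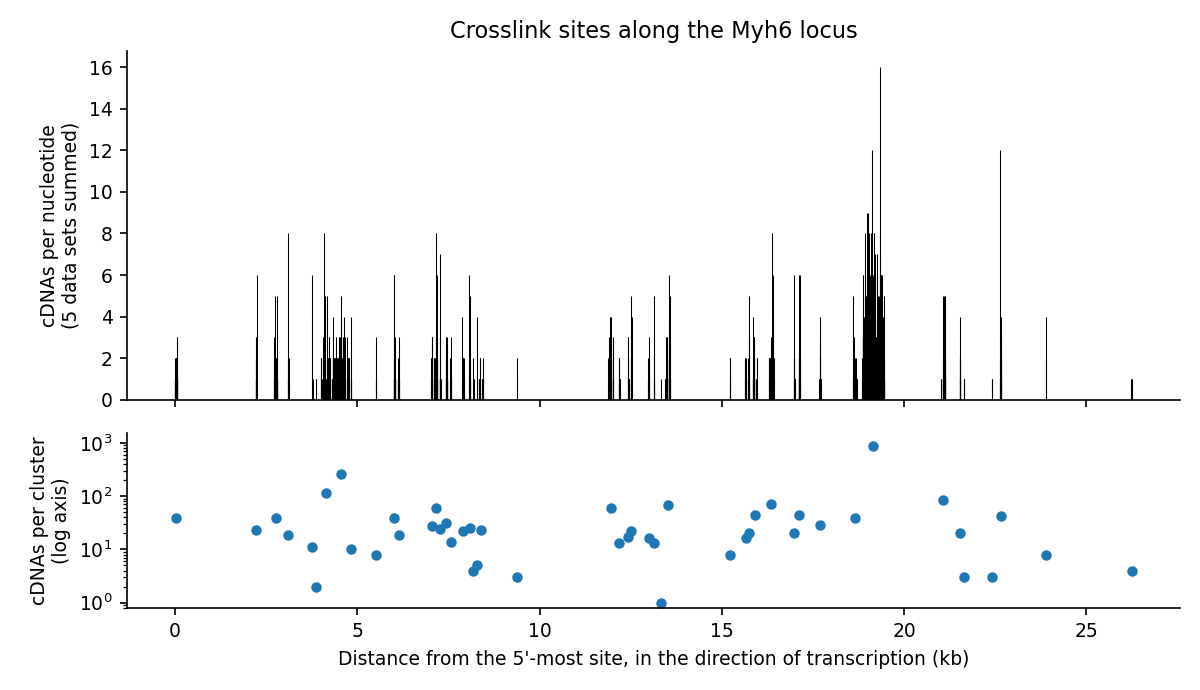
Top, pooled cDNAs at each crosslink site of the Myh6 locus (linear axis) against the distance in kb from the 5′-most site in the direction of transcription; bottom, the cDNAs of each of the 48 clusters (log axis) at the cluster's middle. The cluster with 865 cDNAs stands near 19 kb, the one with 255 cDNAs between 4 and 5 kb, and the tallest site reaches 16 cDNAs.

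The widest cluster lay from 55565251 to 55565853, and its 5′ edge was 18850 nt from the 5′-most site of the locus. It held 378 sites and 865 cDNAs, which were 30.3% of the sites and 36.9% of the cDNAs of Myh6 (interval for cDNAs 34.9% to 38.8%), on 603 nt. Of those 603 nucleotides, 62.7% were listed sites. The longest interval inside it without a site was 22 nt, and the longest unbroken run of neighbouring sites was 21 nt, from 55565358 to 55565378. This was a broad field of contact rather than a point.

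No single nucleotide dominated that cluster. Its tallest site, at 55565365, held 16 cDNAs, or 1.85% of the cluster, and the next held 12 and 9. Its sites had a median of 2 cDNAs. In 12 successive steps of 50 nt from its 5′ edge, cDNAs ranged from 32 in the last step to 115 in the step that contains the tallest site. Contact thus ran through the whole cluster and was thinnest at the 3′ edge, where the last 50 nt step held 17 sites against 26 to 37 in the other steps.

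The cluster with the second most cDNAs lay from 55579935 to 55580385 on the 5′ side, 4318 to 4768 nt from the 5′-most site. It held 159 sites and 255 cDNAs on 451 nt, with no site above 5 cDNAs. The next cluster upstream, from 55580438 to 55580711, was separated from it by 52 nt and held 72 sites and 114 cDNAs on 274 nt. Its tallest site, at 55580607, held 8 cDNAs. With sites joined up to 100 nt apart, this pair would fall in a single cluster. Both were shallower than the widest cluster, at 1.60 and 1.58 cDNAs per site against 2.29. The widest was not the deepest by this measure, since a cluster of 3 sites reached 3.67.

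The remaining 3 of the 6 were narrower. The cluster from 55563574 to 55563678 held 44 sites and 86 cDNAs on 105 nt, downstream of the widest cluster by 1572 nt. The cluster from 55568282 to 55568407 held 39 sites and 71 cDNAs on 126 nt, and that from 55571123 to 55571253 held 39 sites and 69 cDNAs on 131 nt. All 3 lay on the 3′ side of the midpoint of the locus.

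**Figure D2:**
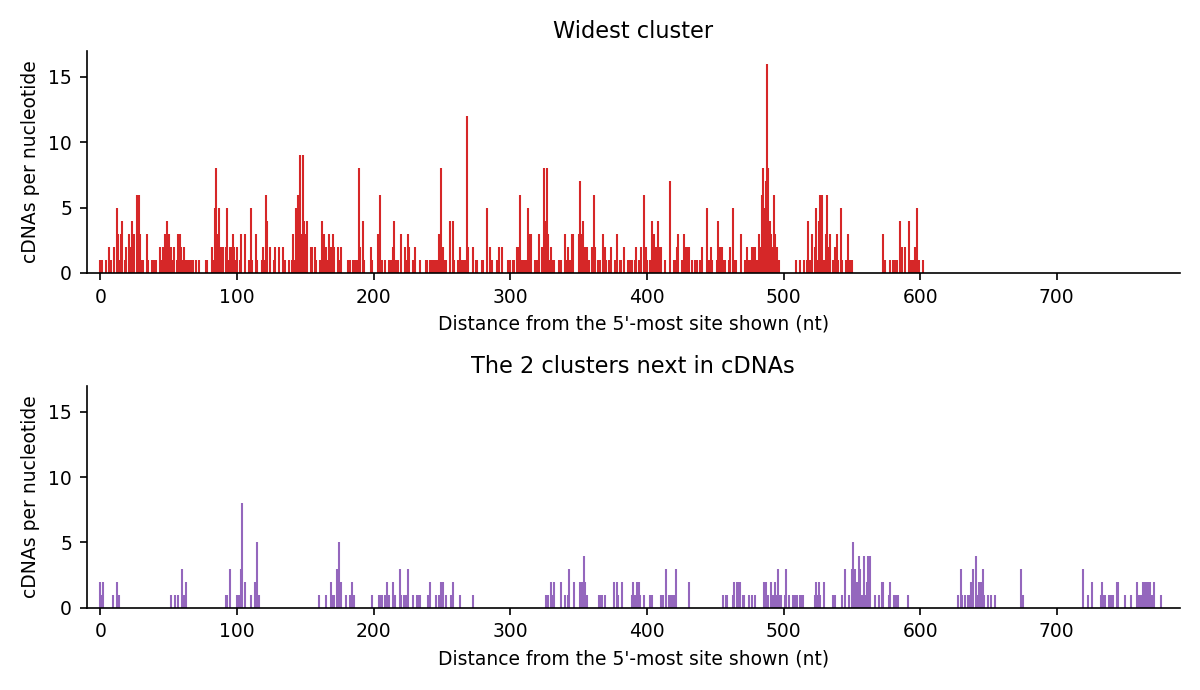
Pooled cDNAs per nucleotide against the distance in nt from the 5′-most site shown, for the widest cluster (top) and for the pair of clusters next in cDNAs (bottom), on the same axes. The widest cluster has sites at 62.7% of its 603 nt, with gaps of at most 22 nt, and reaches 16 cDNAs. The clusters of the pair have gaps of up to 43 nt inside them and do not exceed 8.

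The widest cluster was longer than any annotated exon of the gene. In GRCm38 the same full-length Myh6 transcript has 39 exons with a median of 135 nt and a maximum of 390 nt, and introns from 83 nt to 2548 nt with a median of 294.5 nt. Only lengths were compared, and no coordinate was carried between builds. A stretch of 603 nt is 213 nt longer than the longest of these exons, and its gaps, at most 22 nt, were shorter than the shortest intron. If the exon and intron lengths are the same on mm9, at least 35 of the 378 sites of the widest cluster lay outside exons of that transcript. The longest exon of any of the 7 annotated Myh6 transcripts, retained-intron forms included, is 585 nt, and against it the least number was 9. For the cluster of 451 nt, at least 8 of 159 sites lay outside exons of that transcript, but it is shorter than the exon of 585 nt, against which no site need lie outside. Which exon or intron each cluster occupies was not analysed here.

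Few sites on Myh6 were tall. A single cDNA marked 682 sites (54.7%), 318 sites held 2, 172 held 3 or 4, 71 held 5 to 9, and 3 held 10 or more. These 3 were the site with 16 cDNAs at 55565365, a site with 12 at 55565585, and a site with 12 at 55562059. The first 2 belong to the widest cluster. The third lay 22644 nt from the 5′-most site, in a cluster of only 30 nt and 16 sites, where it held 12 of 42 cDNAs. Sites at 55565705 and 55565707, both in the widest cluster, held 9 cDNAs each.

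A value of 8 cDNAs was reached at 11 sites. Of these, 7 lay in the widest cluster and the others at 55581594, 55580607, 55577533 and 55568339, each in a different cluster. Of all 74 sites with 5 or more cDNAs, 41 (55.4%) lay in the widest cluster and 33 outside it. In all, 21 of 48 clusters had a site of 5 or more. At the other end, 5 clusters had no site above 1 cDNA.

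The side of the locus with more cDNAs changed when 1 cluster was left out. Up to the midpoint of the span, counted from the 5′-most site, lay 943 cDNAs, or 40.2% (interval 38.2% to 42.2%), in 28 of the 48 clusters. Beyond it lay 1404 cDNAs in 20 clusters. Without the widest cluster the 5′ share was 63.6% (interval 61.1% to 66.1%), so the direction depended on that cluster. The cDNAs on the 5′ side include 255 and 114 in the neighbouring clusters between 55579935 and 55580711. The share without these clusters as well was not computed. In 10 equal parts of the span, the second held 450 cDNAs (19.2%) and the eighth 903 (38.5%), while the last held 12 (0.511%).

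The 3 widest gaps without a site were 2497 nt between sites at 55575314 and 55572816, 2325 nt between 55560800 and 55558474, and 2163 nt between 55584648 and 55582484. In all, 6 of 47 gaps were longer than 1 kb, and 13 were under 100 nt. The first cluster, at the 5′ edge of the locus from 55584648 to 55584703, held 27 sites and 39 cDNAs, with no site above 3. The last, from 55558453 to 55558474, held 4 sites of 1 cDNA each. The outermost sites were 1244 nt farther apart than the annotated length of Myh6 in GRCm38, 25007 nt, so if that length holds on mm9 not every site can lie within the annotated gene. The isolated cluster of 4 sites at the 3′ edge lies beyond the second widest gap, and without it the sites span 23904 nt, less than that length.

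**Figure D3:**
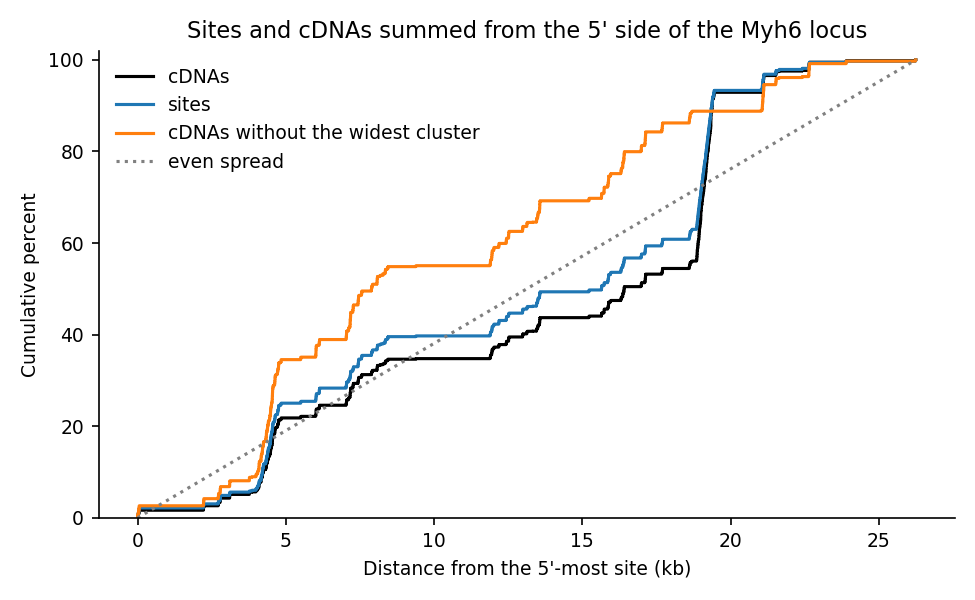
Cumulative percent of cDNAs (black), of sites (blue) and of cDNAs without the widest cluster (orange) against the distance in kb from the 5′-most site of the Myh6 locus; the dotted line is an even spread. The black line is at 40.2% at the midpoint of the span and climbs steeply near 19 kb, while the orange line is at 63.6% at the midpoint.

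Contact at the locus was on the sense strand only, and the flanks held none on that strand. On the plus strand, 0 sites were listed within the span of the locus. On the minus strand, the 30 kb beyond each end held 0 sites, the next site being 139.8 kb away on the 5′ side and 30.9 kb away on the 3′ side. In GRCm38, Myh7 is transcribed from the same strand and occupies the interval from 3757 to 27699 nt beyond the 5′ end of Myh6, so no site was listed where Myh7 would lie if these distances hold on mm9 and the 5′-most site lies near the 5′ end of Myh6. A list of significant sites does not show that Myh7 RNA had no cDNAs, and the shared sequence above bears on both genes.

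On the opposite strand, the 5′ flank held 65 sites with 70 cDNAs. Of these, 59 sites with 64 cDNAs lay between 55587580 and 55589424, which is 2877 to 4721 nt beyond the 5′-most site of Myh6, with no site above 2 cDNAs. The GRCm38 annotation places Mhrt, a noncoding RNA antisense to Myh7, 1751 to 7422 nt beyond the 5′ end of Myh6 on that strand. The 2 intervals overlap in distance, and no site was assigned to Mhrt.

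Beside 3 other regions of contractile genes in the list, Myh6 held the most sites and cDNAs per kb. Myh6 and these regions were chosen by their sites or clusters in these same data, so this order is a description and not a finding. The regions were those with the most clusters on their chromosome and strand (for Ldb3, the most after Myh6), at the mm9 places of Ttn (titin, the elastic filament of the sarcomere), Tnnt2 (cardiac troponin T, of the thin filament) and Ldb3 (a Z-disc protein); these names, too, come from no mm9 annotation. Myh6 held 47.5 sites per kb between its outermost sites, Tnnt2 35.6, Ldb3 14.4 and Ttn 13.3. Per kb, cDNAs were 89.4 on Myh6, 72.6 on Tnnt2, 18.0 on Ldb3 and 17.2 on Ttn. Without the cluster with the most sites in each region, an alternative chosen after seeing the data, Myh6 held 33.1 sites and 56.5 cDNAs per kb and Tnnt2 20.6 and 39.7, so the order of this pair did not rest on that cluster. On the same basis Ttn held 13.0 sites and 16.8 cDNAs per kb, and Ldb3 12.6 and 15.6.

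The concentration in 1 cluster was also seen on Tnnt2. The cluster with the most sites held 30.3% of sites on Myh6 (interval 27.8% to 33.0%) and 42.1% on Tnnt2 (37.9% to 46.5%), against 12.5% on Ldb3 (8.83% to 16.9%) and 2.32% on Ttn (1.69% to 3.10%). The widest cluster measured 603 nt on Myh6, 555 nt on Tnnt2, 318 nt on Ttn and 222 nt on Ldb3. On Ttn and Ldb3 no cluster held as large a part of the sites, and their widest clusters were narrower. Clusters of 10 or more sites made up 64.6% of clusters on Myh6 and 60.0% on Tnnt2, against 43.8% on Ldb3, 21.6% on Ttn and 6.13% over all other nuclear sites. Regions chosen for many sites or clusters are set here beside the rest of the list, so these shares are a description only.

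The shares of single-cDNA sites and of sites with 5 or more cDNAs were both lower on Myh6 as a whole than over the other nuclear sites. The share with a single cDNA was 54.7% (interval 51.9% to 57.5%) on Myh6 and 66.0% (65.5% to 66.5%) over the 31645 other nuclear sites. It was 60.3% (56.0% to 64.5%) on Tnnt2, whose interval overlaps that of Myh6, 77.3% (75.4% to 79.2%) on Ttn and 79.7% (74.5% to 84.3%) on Ldb3. Without the widest cluster the Myh6 share was 58.5% (55.2% to 61.8%), still below the other nuclear sites. These intervals take neighbouring sites as independent and carry no spread between libraries, and no test of the differences was made.

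Sites with 5 or more cDNAs made up 5.94% (4.69% to 7.40%) on Myh6, 7.87% (5.73% to 10.5%) on Tnnt2 and 10.7% (10.3% to 11.0%) over the other nuclear sites. Within the widest cluster of Myh6 the share was 10.8% (7.90% to 14.4%), and without that cluster it was 3.80% (2.63% to 5.30%). For sites of 5 or more cDNAs, the low share thus belonged to the other clusters. These sites made up 0.421% (0.182% to 0.828%) on Ttn, and on Ldb3 there were 0 of 281 sites, for which the upper bound of the interval is 1.30%. Sites with 10 or more cDNAs numbered 3 of 1246 on Myh6, 12 of 534 on Tnnt2 and 1567 of the other nuclear sites (4.95%). The widest cluster held 2 of those on Myh6, or 0.529% of its 378 sites, so at this cut-off its share was low too. Sites of 2 to 4 cDNAs held 1197 of the 2347 cDNAs on Myh6. Sites of 2 held 27.1% of its cDNAs and sites of 3 or 4 held 23.9%. These 2 shares were 18.7% and 20.3% on Tnnt2, 26.9% and 11.7% on Ttn, and 26.2% and 9.97% on Ldb3. Over the other nuclear sites they were 11.4% and 9.64%. The mean on Myh6 was 1.88 cDNAs per site, against 2.04 on Tnnt2, 1.29 on Ttn, 1.25 on Ldb3 and 2.72 over the other nuclear sites. The last mean includes very deep places and does not describe a typical site. Among the other nuclear sites the tallest held 296 cDNAs and the deepest cluster 11269 of 85942, while 66.0% of sites held a single cDNA.

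Neighbouring nucleotides were often both listed. At 79.7% of Myh6 sites the nucleotide on 1 side or the other was also a site, against 75.8% on Tnnt2, 47.1% on Ttn, 40.2% on Ldb3 and 64.4% over the other nuclear sites. The most sites within any 100 nt numbered 72 on Myh6, 58 on Tnnt2, 29 on Ttn and 20 on Ldb3. The authors kept sites by their counts within 15 nt, so a dense place keeps more of its single-cDNA sites, and the part of this selection in these shares was not tested.

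**Figure D4:**
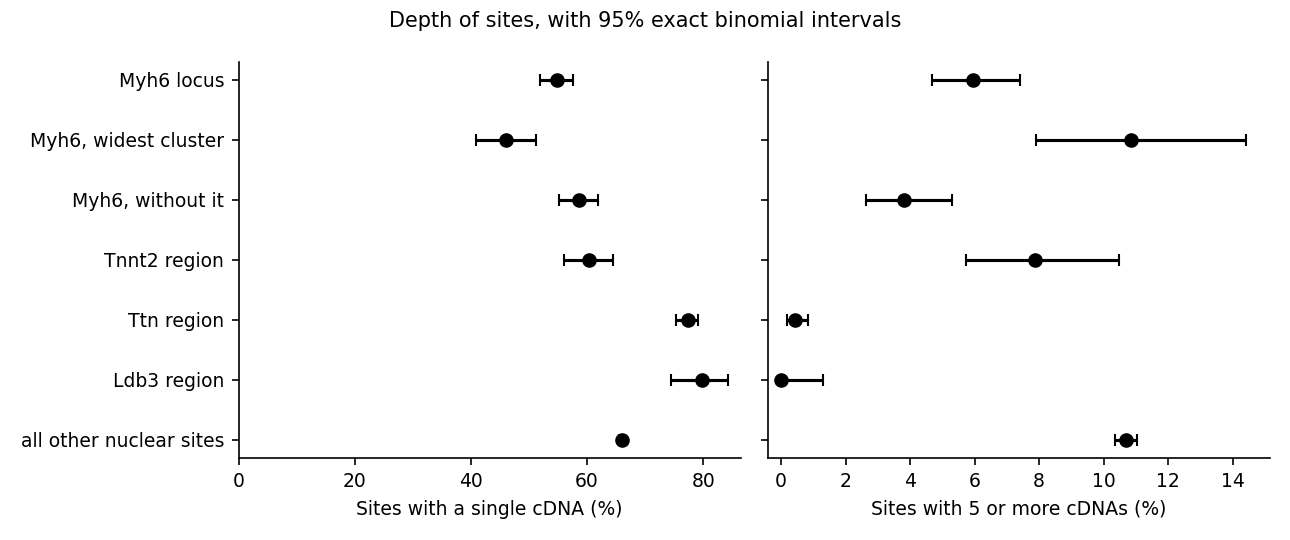
Percent of sites with a single cDNA (left) and with 5 or more cDNAs (right) on the Myh6 locus, its widest cluster, the locus without it, 3 other regions and all other nuclear sites; points are shares and bars are 95% exact intervals for counting error. Myh6 has fewer single-cDNA sites than the other nuclear sites (54.7% against 66.0%) and also fewer of 5 or more (5.94% against 10.7%).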

How the data were processed

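The authors deposited 1 list of crosslink positions on mm9. The deposited score at each position is its whole number of cDNAs, signed by strand (negative for minus). Per the file headers, 5 data sets were summed before positions were called, the threshold was FDR < 0.05 (100 permutations, 15 nt neighbourhood, each kind of region apart), and Ensembl release 59 was named. The submitters' processing notes name Bowtie 0.10.1. The sources used here do not state the peak caller or the handling of duplicates and of reads with several matches, and the depth per library is unknown.

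The absolute score was used as the cDNA count. Positions are 1-based. Clusters join sites at most 50 nt apart on 1 strand, and regions join clusters less than 20 kb apart. Ttn, Tnnt2 and Ldb3 were the regions with the most clusters on their strand of chromosomes 2, 1 and 14 (after Myh6). No test over samples was possible. The clustering was checked on simulated data. The rule for named items was the 6 clusters and 10 sites with the most cDNAs (with ties), the outermost clusters and the 3 widest gaps. Members, lists and comparisons were chosen with earlier results of these data known. A list of sarcomere genes and one of cell type markers could not be counted, since no mm9 annotation was used. Transcripts were compared by exact windows and a global alignment (match 1, mismatch -1, gap opening -5, extension -1). Python 3.11.15, numpy 2.4.6, pandas 2.3.3, scipy 1.17.1, Biopython 1.88 and matplotlib 3.10.9 were used.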

Additional observations from a re-analysis of the deposited data

How the results depend on the processing

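With sites of 2 or more cDNAs alone, Myh6 held 564 sites in place of 1246, and its widest cluster held 41.5% of the cDNAs in place of 36.9%. With sites counted in place of cDNAs, that cluster held 30.3%, and the 5′ side up to the midpoint held 45.6% in place of 40.2%. Without the cluster with the most sites, the 5′ side held 63.6%, single-cDNA sites made up 58.5% in place of 54.7%, and the mean was 1.71 cDNAs per site in place of 1.88. Sites with 5 or more cDNAs made up 3.80% without it in place of 5.94%, an alternative chosen after seeing the data. The number of clusters, 48, was 70, 61 and 35 with sites joined at 15, 30 and 100 nt, and 49 with sites of 2 or more cDNAs. A window wider by 5 kb on each side added no site. No paired analysis was possible because the labels give 1 group and the list is 1 pool, and for the same reason no replicate could be left out. The unknown depth of each library limits what the absence of a listed site can show.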
